A study of Homo sapiens with 10 samples.

Results

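Genes of the unfolded protein response and of protein folding in the endoplasmic reticulum (ER) were followed in HEK-293 cells after silencing of either of 2 long non-coding RNAs. The members were 40 genes listed by name and matched by gene symbol to the deposited expression table. Of these, 38 were measured among 18404 genes with a single symbol, each through the probe set with the highest mean over all arrays. PDIA3 and TXNDC5 lay only on probe sets shared by several genes and were not analysed here. HEK-293 is an established human embryonic kidney cell line, and all 10 arrays came from it. At 10 nM the cells received a control siRNA, siRNA 1 against LOC440173 (now LINC02893) or siRNA 2 against the same RNA. At 100 nM they received the control siRNA or an siRNA against PAXIP1-AS1. The control was a commercial negative control duplex whose sequence is undisclosed. All cells were transfected with RNAiMax lipid reagent in low-glucose medium and lysed 48 h later, so every group, controls included, carried reagent and duplex. Each of the 5 groups held 2 arrays, which the labels call biological replicates. LOC440173 was targeted by 2 duplexes and PAXIP1-AS1 by 1, so only for the former can an siRNA be set against another one.

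The ER folds secreted and membrane proteins with the help of chaperones, lectins that bind glycans and enzymes that form disulfide bonds. Chains that fail to fold are moved out to the proteasome, a route called ER-associated degradation (ERAD). When unfolded chains accumulate, the membrane sensors IRE1 (gene ERN1), PERK (gene EIF2AK3) and ATF6 start the unfolded protein response. IRE1 splices the mRNA of XBP1, PERK slows translation and lets ATF4 be made, and ATF6 is cut to release a transcription factor. Spliced XBP1 and cut ATF6 raise the genes of chaperones and ERAD through short DNA elements in their promoters. The arrays measure total mRNA of a gene, so neither splicing of XBP1, nor cutting of ATF6, nor phosphorylation of PERK was measured.

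Values are log2 levels as deposited. A log2 difference of 1 unit is a doubling. In 1 limma fit over all 10 arrays, a gene was called higher or lower where its Benjamini-Hochberg adjusted p over all 18404 genes was under 0.05. Every adjusted p below comes from that fit unless another setting is named. The arrays of 2 groups often did not overlap. This held for 64.9% of all genes with siRNA 1 and 55.3% with siRNA 2 against the control. It held for 66.4% between these siRNAs, 51.3% with the PAXIP1-AS1 siRNA and 25.8% between the control doses. Statements below that arrays lay apart are descriptions. Replicate arrays correlated at r = 0.994 to 0.997 over probe sets, which are not independent replicates, and array medians lay between 7.06 and 7.12. LINC02893 itself was at 51.4% of its control with siRNA 1 (adjusted p = 0.000305) and at 27.0% with siRNA 2 (adjusted p = 1.38e-05). PAXIP1-AS1 has no probe set of its own among those named, so its level was not analysed here. Of 12 embryonic kidney and neuronal-like markers of HEK-293, 7 lay above the median gene level of 7.66 and 0 below the lower quartile of 5.99. Of 23 measured markers of liver, fibroblast and endothelium, blood, keratinocyte and secretory cells, COL1A1 alone lay above that median, and none of 5 secretory cell markers lay above the lower quartile. Of these 23 markers, 3 (13%) were called higher with siRNA 1, against 12.1% of all genes. None of the 23 was called with siRNA 2 or the PAXIP1-AS1 siRNA. The 12 HEK-293 markers did change. With siRNA 1, 4 of them (33.3%) were called, 1 higher and 3 lower, against 28.8% of all genes. With siRNA 2, 9 (75%) were called, 4 higher and 5 lower, against 30.0% of all genes. With the PAXIP1-AS1 siRNA, 4 (33.3%) were called, 1 higher and 3 lower, against 4.62% of all genes. Summed over 6 fibroblast and endothelial markers, the mean log2 levels were 36.7 with the 10 nM control, 37.8 with siRNA 1 and 36.9 with siRNA 2. The sums of the other lists of these 23 markers were also higher with each LOC440173 siRNA than with this control. With siRNA 1, siRNA 2 and the control they were 27.7, 27.2 and 26.9 for hepatocyte markers. In the same order they were 26.5, 26.1 and 25.6 for secretory cell markers. For blood they were 20.2, 20.4 and 20.1, and for keratinocyte markers 19.0, 18.6 and 18.4. The HEK-293 markers summed to 105.0 with siRNA 1, 106.3 with siRNA 2 and 106.2 with the control. Of the 23 markers 20 had a log2 difference above 0 with siRNA 1 and 16 with siRNA 2. Of all 18404 genes, 10954 and 9682 did. The part of these markers in the results was not tested.

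The promoters of some members carry the elements that XBP1 and ATF6 are known to use. RefSeq promoters (GRCh38.p14, from 250 bases before to 50 bases after each transcript start) were found for 37 of the 40 members. The ER stress response element (ERSE: CCAAT, any 9 bases, then CCACG, on either strand) was present in 9 of these 37 members, or 24.3%, and in 25 of all 27305 genes with a promoter, or 0.0916%. The related ERSE-II (ATTGG, any 1 base, then CCACG, on either strand) was present in 3 of 37 members, or 8.11%, against 0.0696% of genes. The unfolded protein response element (UPRE, TGACGTGG, either strand) was present in 3 members against 0.927% of genes, and in HYOU1 it overlapped ERSE-II. In the 74 other pathway genes with a promoter, 0 held ERSE or ERSE-II. The members were listed for their part in this response and include well-known targets of it. A higher share among them was to be foreseen from that choice and is not a test. A match is only a run of letters, and binding was not measured. The matched elements are shown because they let the best-known target promoters be compared letter by letter; capitals mark the fixed bases and lower case the spacer, read 5′ to 3′ on the strand that matched.

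HSPA5 ERSE: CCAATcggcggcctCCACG
XBP1 ERSE: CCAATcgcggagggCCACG
CRELD2 ERSE: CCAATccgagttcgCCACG
PDIA6 ERSE: CCAATgagccgcagCCACG
HSP90B1 ERSE, far copy: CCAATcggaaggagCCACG
HSP90B1 ERSE, near copy: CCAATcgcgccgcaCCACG
CALR ERSE: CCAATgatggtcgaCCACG
ERO1B ERSE: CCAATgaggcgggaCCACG
SERP1 ERSE: CCAATtcgctgtctCCACG
CANX ERSE: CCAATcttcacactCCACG
HERPUD1 ERSE-II: ATTGGgCCACG
HYOU1 ERSE-II, both copies: ATTGGaCCACG
SDF2L1 ERSE-II: ATTGGtCCACG

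The spacers differ from gene to gene, whereas both HYOU1 copies share the same variable base. For 3 members that the results turn on, the 250 bases before the start are given on the strand of the gene, 5′ to 3′, with the matched bases in capitals. They are the chaperone HSPA5 at chr9:125241344-125241593 (minus strand), XBP1 at chr22:28800570-28800819 (minus strand) and the chaperone HYOU1 at chr11:119057206-119057455 (minus strand). In HYOU1 the ERSE-II copies lie on the opposite strand, so they read as CGTGG followed by any base and CCAAT.

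HSPA5: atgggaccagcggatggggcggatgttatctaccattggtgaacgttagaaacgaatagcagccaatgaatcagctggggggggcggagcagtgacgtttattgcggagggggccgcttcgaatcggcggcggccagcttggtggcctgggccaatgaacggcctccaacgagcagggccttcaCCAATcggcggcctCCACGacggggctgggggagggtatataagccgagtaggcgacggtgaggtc
XBP1: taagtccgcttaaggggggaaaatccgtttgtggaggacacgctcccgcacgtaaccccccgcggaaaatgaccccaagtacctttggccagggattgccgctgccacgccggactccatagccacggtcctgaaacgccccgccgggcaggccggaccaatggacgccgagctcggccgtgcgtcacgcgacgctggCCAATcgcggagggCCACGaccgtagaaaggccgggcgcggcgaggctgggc
HYOU1: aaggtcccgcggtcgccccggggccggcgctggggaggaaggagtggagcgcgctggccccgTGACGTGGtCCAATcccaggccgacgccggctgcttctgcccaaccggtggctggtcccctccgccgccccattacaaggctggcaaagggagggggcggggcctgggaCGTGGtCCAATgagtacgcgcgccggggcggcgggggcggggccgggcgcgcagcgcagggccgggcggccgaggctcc

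**Figure D1:**
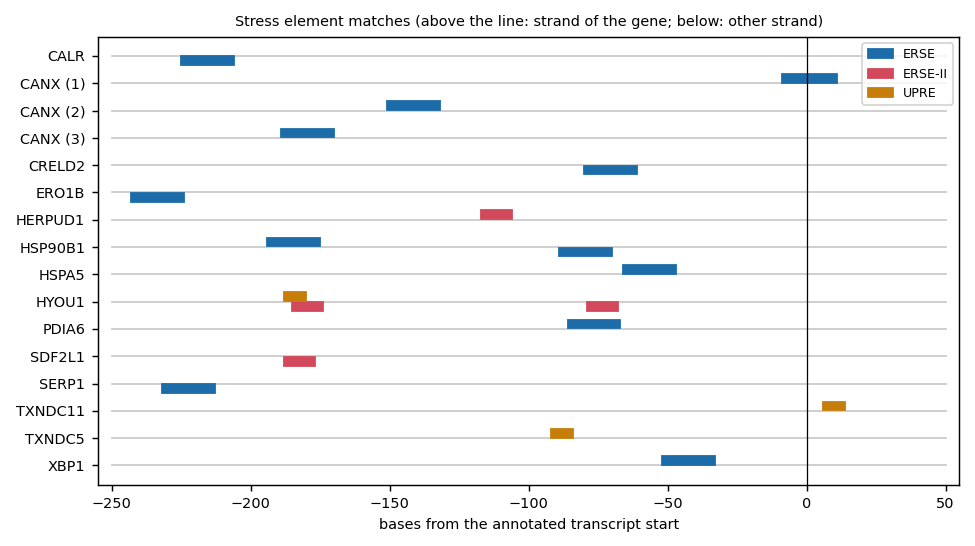
Position of each ERSE, ERSE-II and UPRE match in the promoters of members that hold one, in bases from the annotated transcript start; boxes above a line lie on the strand of the gene and boxes below it on the other strand. CANX appears with 3 annotated starts that share 1 element, and HYOU1 holds 2 copies of ERSE-II.

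With siRNA 1 against LOC440173, 18 of the 38 members were called, 2 higher and 16 lower. Over all genes 28.8% were called, 12.1% higher and 16.7% lower. The lower share among members (42.1%) stood above that background and the higher share (5.26%) below it. The members were chosen with earlier results of these data known. Their shares, here and below, are therefore descriptions and not tests. The median log2 difference was -0.08 over the members and 0.05 over all genes. The members with the largest differences were the bZIP factor CREB3L2, the ERAD mannosidase-like protein EDEM3, the isomerase PDIA6 and the transcription factor XBP1, all lower. The ubiquitin ligase SYVN1 rose.

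With siRNA 2, 20 members were called, 4 higher and 16 lower, against 30.0% of all genes (12.5% higher and 17.4% lower). The members' shares were 10.5% higher and 42.1% lower. The median log2 difference was -0.12 over the members and 0.01 over all genes. The chaperone HYOU1 fell to 33.5% of its control level, the largest difference of any member in any comparison with a control. CREB3L2 and XBP1 were lower here too, while HERPUD1, ERN1, DERL2 and ERO1B rose. Both comparisons use the same control arrays, so their values are given side by side and no agreement between them is read.

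All 38 members lay at or above the median gene level. When only the 9202 genes at or above that level were fitted, 55.3% of the members and 55.8% of the genes were called with siRNA 1. With siRNA 2 the shares were 57.9% and 58.0%. The share of members called was therefore close to that of genes of similar brightness. The direction differed: with siRNA 1 the lower calls were 47.4% of the members and 32.4% of the bright genes, and with siRNA 2 they were 44.7% and 32.4%. The higher calls were 7.89% against 23.4%, and 13.2% against 25.6%. When the fit held only the arrays compared, the members called lower with siRNA 2 numbered 8 in place of 16, and 15.1% of all genes were called.

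**Figure D2:**
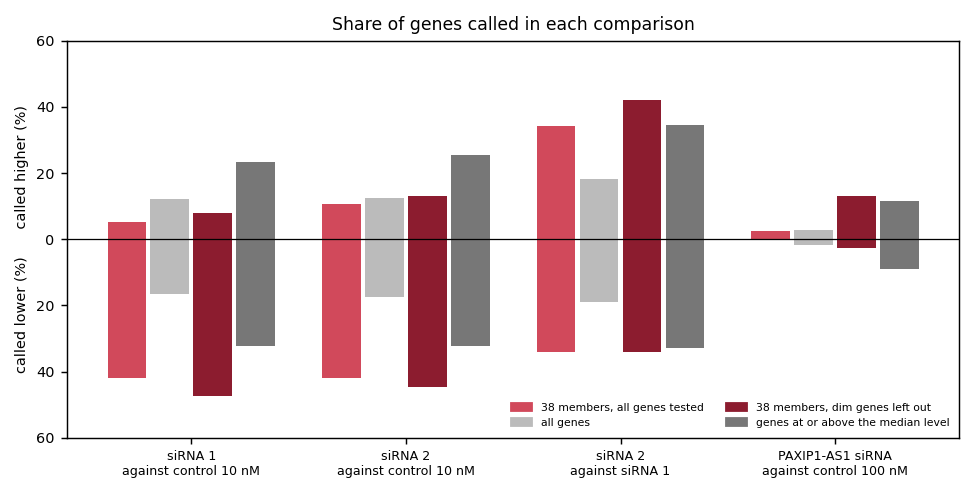
Percent of genes called higher (above 0) and lower (below 0) in 4 comparisons, for the 38 members and for all genes, in the fit of all genes and in the fit of genes at or above the median level. The members' lower bars exceed the gene bars with each LOC440173 siRNA, and 1 member was called with the PAXIP1-AS1 siRNA in the fit of all genes.

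**Figure D3:**
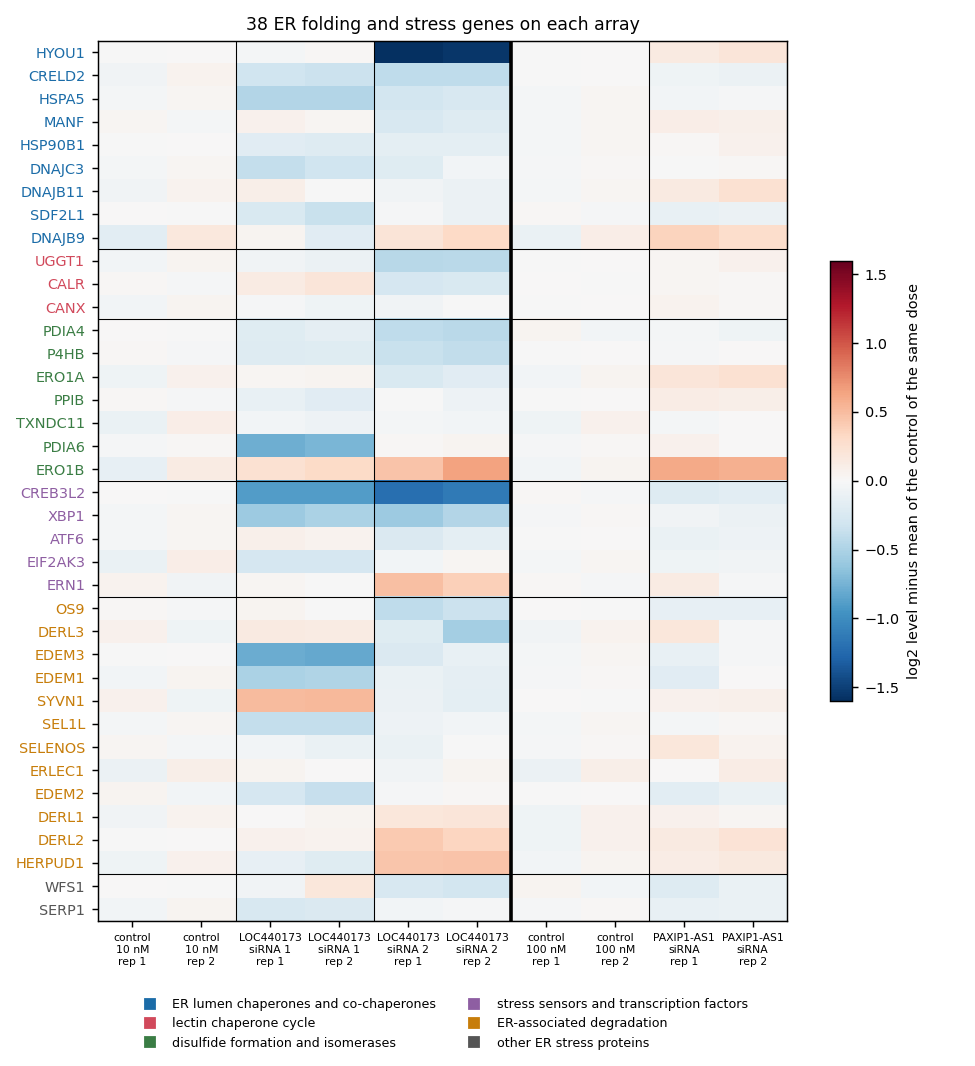
Log2 level of each of the 38 members on each of 10 arrays, minus the mean of the control arrays of the same dose; blue is lower and red higher, and label colours mark the role. HYOU1 is deep blue on the siRNA 2 arrays alone, and CREB3L2 is blue on all 4 arrays of the LOC440173 siRNAs.

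Of the 5 stress sensors and transcription factors, 3 were lower and 0 higher with siRNA 1, and 3 were lower and 1 higher with siRNA 2. The lower share of this short list was 60% with each siRNA, against 16.7% and 17.4% of all genes. Among bright genes, in their own fit, it was 32.4% with each. The higher shares were 0% and 20%, against 12.1% and 12.5% of all genes. CREB3L2, an ER-anchored bZIP factor that is cut and released like ATF6, changed most (probe set 8143188). Its log2 levels were 10.38 and 10.36 with the 10 nM control, 9.47 and 9.48 with siRNA 1, 9.17 and 9.23 with siRNA 2, 10.40 and 10.37 with the 100 nM control, and 10.17 and 10.21 with the PAXIP1-AS1 siRNA. All 4 LOC440173 siRNA arrays lay below every other array. CREB3L2 fell by 0.90 ± 0.049 (SE, n = 2 a group, adjusted p = 1.9e-05) with siRNA 1 and by 1.17 ± 0.049 (adjusted p = 6.8e-06) with siRNA 2. Between the siRNAs it was lower with siRNA 2, by a log2 difference of -0.27 (adjusted p = 0.00274).

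XBP1 (probe set 8075182) is the factor whose mRNA IRE1 splices. Its log2 levels were 11.07 and 11.13 with the 10 nM control, 10.52 and 10.60 with siRNA 1, 10.52 and 10.63 with siRNA 2, 11.14 and 11.17 with the 100 nM control, and 11.10 and 11.07 with the PAXIP1-AS1 siRNA. The arrays of both LOC440173 siRNAs were below all others and overlapped each other. XBP1 fell by 0.54 ± 0.057 with siRNA 1 (adjusted p = 0.00036) and by 0.52 ± 0.057 with siRNA 2 (adjusted p = 0.000338). The log2 difference between the siRNAs was 0.02, with a 95% confidence interval of -0.12 to 0.15. Total XBP1 mRNA was thus at 68.8% and 69.6% of the control, whatever the spliced share.

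The 3 sensors moved by less. ERN1, which encodes IRE1, measured 8.08 and 7.97 with the 10 nM control, 8.06 and 8.02 with siRNA 1, 8.50 and 8.41 with siRNA 2, 8.01 and 7.97 with the 100 nM control, and 8.12 and 7.96 with the PAXIP1-AS1 siRNA. Only the siRNA 2 arrays stood apart, above the rest. ERN1 rose by 0.43 ± 0.070 with siRNA 2 (adjusted p = 0.00245), whereas its log2 difference with siRNA 1 was 0.02 (adjusted p = 0.877). The direct comparison of siRNA 2 with siRNA 1 gave 0.41 (adjusted p = 0.00209).

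EIF2AK3, which encodes PERK, measured 8.21 and 8.43 with the 10 nM control, 8.05 and 8.06 with siRNA 1, 8.28 and 8.36 with siRNA 2, 8.18 and 8.25 with the 100 nM control, and 8.14 and 8.15 with the PAXIP1-AS1 siRNA. The siRNA 1 arrays were the lowest of the 10, and the siRNA 2 arrays lay within the range of the control at 10 nM. EIF2AK3 fell by 0.27 ± 0.076 with siRNA 1 (adjusted p = 0.033). This call was lost without control replicate 2, without either siRNA 1 array or without either PAXIP1-AS1 siRNA array, with adjusted p from 0.0566 to 0.14. Between siRNA 2 and siRNA 1 the log2 difference was 0.26 (adjusted p = 0.0272), lost without either siRNA 1 array or without siRNA 2 replicate 2 (adjusted p from 0.0997 to 0.137).

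ATF6 measured 10.95 and 11.01 with the 10 nM control, 11.06 and 11.04 with siRNA 1, 10.75 and 10.83 with siRNA 2, 10.97 and 10.99 with the 100 nM control, and 10.87 and 10.91 with the PAXIP1-AS1 siRNA. The siRNA 2 arrays were the lowest, and the siRNA 1 arrays did not overlap them. ATF6 fell by 0.19 ± 0.051 with siRNA 2 (adjusted p = 0.0219), a call lost without control replicate 2 or siRNA 2 replicate 1 (adjusted p from 0.0903 to 0.114). With siRNA 1 the log2 difference was 0.07 (adjusted p = 0.332). The difference between the siRNAs was -0.26 (adjusted p = 0.00395).

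The ER lumen chaperones and their partners were lower or not called. Of 9 measured, 5 were lower (55.6%) with each LOC440173 siRNA and 0 were higher. Over all genes 16.7% were lower and 12.1% higher with siRNA 1, and 17.4% and 12.5% with siRNA 2. Among bright genes, in their own fit, 32.4% were lower with each siRNA. HYOU1, a large Hsp70-like chaperone that also exchanges nucleotide on BiP, had the most uneven pattern (probe set 7952145). Its log2 levels were 10.12 and 10.13 with the 10 nM control, 10.10 and 10.14 with siRNA 1, 8.53 and 8.57 with siRNA 2, 10.11 and 10.11 with the 100 nM control, and 10.26 and 10.30 with the PAXIP1-AS1 siRNA. The siRNA 2 arrays lay far below all others, and the siRNA 1 arrays spanned those of the control. HYOU1 fell by 1.58 ± 0.048 with siRNA 2 (adjusted p = 2.14e-06), and its log2 difference with siRNA 1 was -0.01 (adjusted p = 0.942, 95% confidence interval -0.12 to 0.11). The log2 difference between siRNA 2 and siRNA 1 was -1.57 (adjusted p = 1.62e-06).

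HSPA5 encodes BiP, the main Hsp70 chaperone of the ER and the usual reporter of the response (probe set 8164165); its array values are added here after they were seen. Its log2 levels were 12.19 and 12.25 with the 10 nM control, 11.76 and 11.75 with siRNA 1, 11.93 and 11.96 with siRNA 2, 12.20 and 12.26 with the 100 nM control, and 12.18 and 12.21 with the PAXIP1-AS1 siRNA. The order was siRNA 1 lowest, siRNA 2 next, and all other arrays above, with no overlap. HSPA5 was at 72.2% of its control with siRNA 1 (log2 difference -0.47 ± 0.050, adjusted p = 0.000355) and at 82.6% with siRNA 2 (-0.28 ± 0.050, adjusted p = 0.00405). The siRNA 2 call was lost when the fit held only the control and siRNA 2 arrays (adjusted p = 0.0665). The log2 difference between siRNA 2 and siRNA 1 was 0.19 (adjusted p = 0.0159). It was lost without either siRNA 1 array or without siRNA 2 replicate 2 (adjusted p from 0.069 to 0.0825).

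Among the other chaperones, CRELD2, a secreted ER stress protein, was lower with siRNA 1 (log2 difference -0.34, adjusted p = 0.00205) and with siRNA 2 (-0.41, adjusted p = 0.000695). HSP90B1, which encodes the Hsp90 of the ER (GRP94), differed by -0.19 with siRNA 1 (adjusted p = 0.0203) and by -0.16 with siRNA 2 (adjusted p = 0.0395). The first HSP90B1 call was lost without control replicate 2 or either siRNA 1 array (adjusted p from 0.0737 to 0.105). The second was lost without any one of the 10 arrays (adjusted p from 0.0568 to 0.12). The HSP90B1 calls thus lie close to the threshold, with SE of 0.048, while CRELD2 stayed called in every alternative run.

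The BiP partners DNAJC3 and SDF2L1 were lower with siRNA 1, by log2 differences of -0.35 (adjusted p = 0.00447) and -0.30 (adjusted p = 0.00539). With siRNA 2 DNAJC3 differed by -0.12 (adjusted p = 0.232) and SDF2L1 by -0.06 (adjusted p = 0.511). In the direct comparison of siRNA 2 with siRNA 1 both were called higher, DNAJC3 by 0.24 (adjusted p = 0.0199) and SDF2L1 by 0.24 (adjusted p = 0.0105). Those calls did not hold without some of the siRNA arrays: DNAJC3 lost its call without siRNA 1 replicate 1 or siRNA 2 replicate 2 (adjusted p from 0.118 to 0.123). SDF2L1 lost it without siRNA 1 replicate 2 or siRNA 2 replicate 1 (adjusted p from 0.0592 to 0.0801). MANF, a secreted protective factor held by BiP, was lower with siRNA 2 instead: it differed by -0.23 with siRNA 2 (adjusted p = 0.0103; 0.0551 without siRNA 2 replicate 1) and by 0.05 with siRNA 1 (adjusted p = 0.477). Between the siRNAs MANF differed by -0.28 (adjusted p = 0.00288). The J-domain partners DNAJB9 and DNAJB11 were not called with either siRNA. DNAJB9 passed with siRNA 2 only without control replicate 2 (log2 difference 0.26 with all arrays, adjusted p = 0.189; adjusted p = 0.0438 without it).

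In the lectin cycle, where calnexin and calreticulin hold glycoproteins and UGGT1 marks unfolded ones for another round, CALR alone of the members was called in opposite directions, as were 5.34% of all genes. CALR (calreticulin, probe set 8026106) measured 10.72 and 10.69 with the 10 nM control, 10.83 and 10.90 with siRNA 1, 10.44 and 10.46 with siRNA 2, 10.71 and 10.71 with the 100 nM control, and 10.73 and 10.73 with the PAXIP1-AS1 siRNA. The siRNA 1 arrays were the highest, the siRNA 2 arrays the lowest, and the other groups lay between them. CALR rose by 0.16 ± 0.047 with siRNA 1 (adjusted p = 0.0359). That call was lost without any single array of another group than siRNA 2, 8 arrays in all (adjusted p from 0.0556 to 0.184). CALR fell by 0.25 ± 0.047 with siRNA 2 (adjusted p = 0.00461; 0.0738 when the fit held only the control and siRNA 2 arrays). The log2 difference between siRNA 2 and siRNA 1 was -0.42 (adjusted p = 0.000249).

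UGGT1 fell by 0.43 with siRNA 2 (adjusted p = 0.000462), and its log2 difference with siRNA 1 was -0.08 (adjusted p = 0.289). Between the siRNAs UGGT1 differed by -0.36 (adjusted p = 0.000822). CANX (calnexin) was not called with either, with log2 differences of -0.04 (95% confidence interval -0.16 to 0.08) and -0.03 (-0.15 to 0.09).

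**Figure D4:**
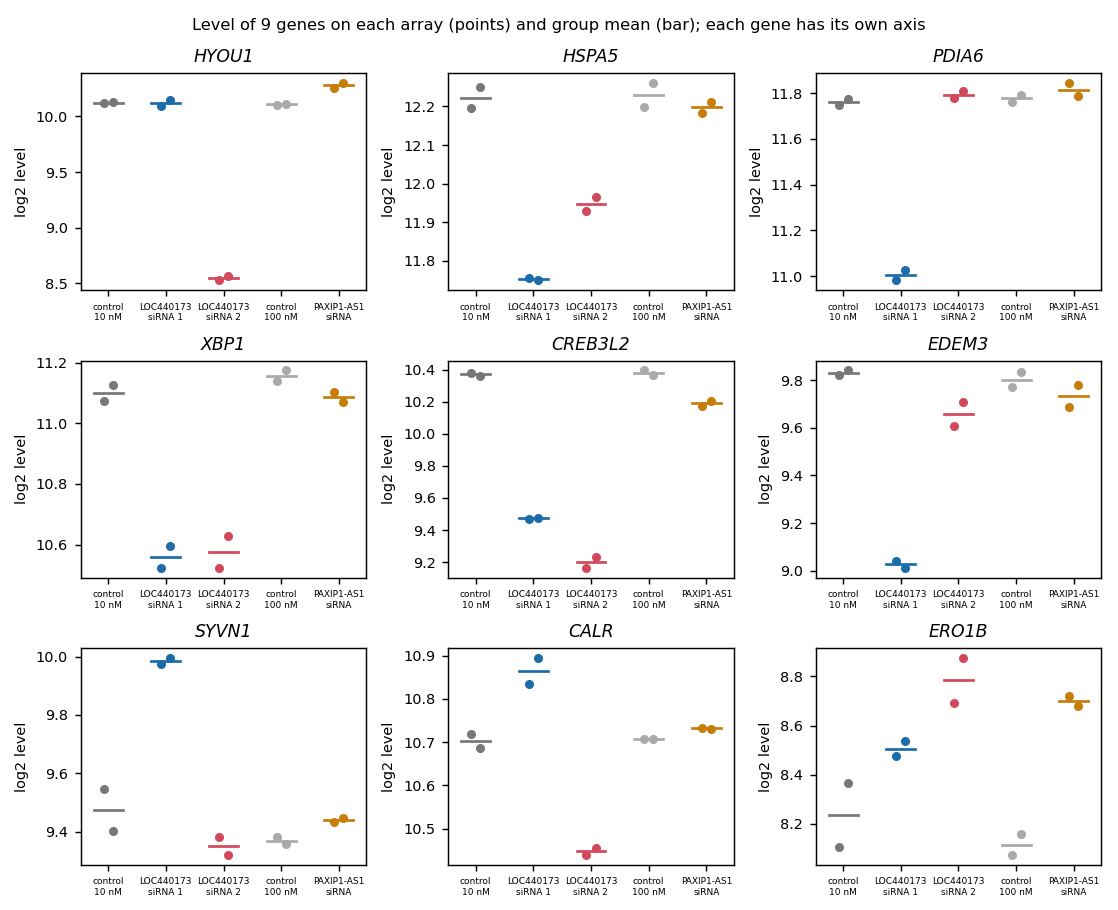
Log2 level of 9 members on each array (points) with the mean of the 2 arrays of a group (bar); each panel has its own axis that does not start at 0. HYOU1 is low with siRNA 2 alone and PDIA6 and EDEM3 are low with siRNA 1, while XBP1 and CREB3L2 are low with both.

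Of the 7 measured genes for disulfide formation and isomerases, 3 were lower and 0 higher with siRNA 1, and 3 were lower and 1 higher with siRNA 2. The lower share was 42.9% with each siRNA, against 16.7% and 17.4% of all genes. Among bright genes, in their own fit, it was 32.4% with each. The higher shares were 0% and 14.3%, against 12.1% and 12.5% of all genes. PDIA6, a protein disulfide isomerase that also acts on IRE1 (probe set 8050278), was lower with siRNA 1 alone. Its log2 levels were 11.75 and 11.77 with the 10 nM control, 10.98 and 11.03 with siRNA 1, 11.78 and 11.81 with siRNA 2, 11.76 and 11.79 with the 100 nM control, and 11.84 and 11.79 with the PAXIP1-AS1 siRNA. The siRNA 1 arrays lay below all others, which sat close together. PDIA6 fell by 0.75 ± 0.049 with siRNA 1, to 59.3% of its control (adjusted p = 3.79e-05). With siRNA 2 the log2 difference was 0.03 (adjusted p = 0.694), and between the siRNAs it was 0.79 (adjusted p = 1.31e-05).

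PDIA4 and P4HB, the latter encoding the founding protein disulfide isomerase, were called lower with both siRNAs and fell further with siRNA 2. With siRNA 2 the log2 differences were -0.42 for PDIA4 (adjusted p = 0.000557) and -0.38 for P4HB (adjusted p = 0.000616). With siRNA 1 PDIA4 differed by -0.17 (adjusted p = 0.0408), a call lost without any one of the 8 arrays other than those of the control at 100 nM (adjusted p from 0.0546 to 0.185). P4HB differed by -0.20 with siRNA 1 (adjusted p = 0.0148), lost without control replicate 1 or either siRNA 1 array (adjusted p from 0.0502 to 0.0801). The direct comparison called both lower with siRNA 2, PDIA4 by -0.25 (adjusted p = 0.00514) and P4HB by -0.18 (adjusted p = 0.017). The P4HB difference between the siRNAs was lost without either siRNA 1 array or without siRNA 2 replicate 2 (adjusted p from 0.069 to 0.0895). P4HB has 2 probe sets, and the dimmer one was lower with each siRNA too (-0.24 and -0.29).

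The oxidases that re-oxidise the isomerases went in opposite directions with siRNA 2. ERO1B (probe set 7925342) measured 8.10 and 8.36 with the 10 nM control, 8.48 and 8.54 with siRNA 1, 8.69 and 8.88 with siRNA 2, 8.07 and 8.16 with the 100 nM control, and 8.72 and 8.68 with the PAXIP1-AS1 siRNA. All 6 arrays with a targeting siRNA lay above all 4 control arrays. ERO1B rose by 0.55 ± 0.095 with siRNA 2 (adjusted p = 0.00332). With siRNA 1 the log2 difference was 0.27 (adjusted p = 0.0685). It passed without control replicate 2 (adjusted p = 0.0192), and also with a further quantile normalization, dim genes left out or an intensity trend (adjusted p from 0.0188 to 0.0298). Between the siRNAs ERO1B differed by 0.28 (adjusted p = 0.0519). That difference passed in the same 3 settings, with array weights and without either 10 nM control array or siRNA 2 replicate 1 (adjusted p from 0.0179 to 0.0362). ERO1A differed by -0.21 with siRNA 2 (adjusted p = 0.0381), a call lost without any one of 7 arrays, namely control replicate 2 at 10 nM and all arrays of the 3 targeting siRNAs (adjusted p from 0.0616 to 0.172). Between the siRNAs ERO1A differed by -0.24 (adjusted p = 0.0156), lost without either siRNA 1 array or without siRNA 2 replicate 1 (adjusted p from 0.0639 to 0.0773). TXNDC11 and the prolyl isomerase PPIB were not called with either siRNA, though PPIB passed with siRNA 1 when dim genes were left out or an intensity trend was used (adjusted p of 0.0161 and 0.0028, against 0.0631).

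ERAD genes went both ways with each siRNA. Of 12 measured, 4 were lower (33.3%) and 1 higher (8.33%) with siRNA 1. With siRNA 2, 2 were lower and 2 higher (16.7% each). Over all genes 16.7% were lower and 12.1% higher with siRNA 1, and 17.4% and 12.5% with siRNA 2. Among bright genes, in their own fit, 32.4% were lower with each siRNA, so the ERAD lower counts do not stand out. EDEM3, of the EDEM family that trims mannose from misfolded glycoproteins (probe set 7922823), measured 9.82 and 9.84 with the 10 nM control, 9.04 and 9.01 with siRNA 1, 9.61 and 9.71 with siRNA 2, 9.77 and 9.83 with the 100 nM control, and 9.69 and 9.78 with the PAXIP1-AS1 siRNA. The siRNA 1 arrays were lowest, apart from all others. EDEM3 fell by 0.80 ± 0.058 with siRNA 1, to 57.3% of its control (adjusted p = 5.73e-05), and its log2 difference with siRNA 2 was -0.18 (adjusted p = 0.0566; from 0.0153 to 0.0368 with a further quantile normalization, dim genes left out or an intensity trend). Its family members EDEM1 and EDEM2 were lower with siRNA 1 by -0.50 (adjusted p = 0.00126) and -0.32 (adjusted p = 0.00462). With siRNA 2 EDEM1 differed by -0.13 (adjusted p = 0.233) and EDEM2 by 0.00 (adjusted p = 0.999). All 3 were called between the siRNAs: EDEM1 by 0.37 (adjusted p = 0.00329), EDEM2 by 0.32 (adjusted p = 0.00302) and EDEM3 by 0.63 (adjusted p = 8.76e-05).

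SYVN1 encodes HRD1, the ubiquitin ligase at the centre of the ERAD complex, and SEL1L its adaptor. SYVN1 (probe set 7949383) measured 9.54 and 9.40 with the 10 nM control, 9.97 and 10.00 with siRNA 1, 9.38 and 9.32 with siRNA 2, 9.38 and 9.36 with the 100 nM control, and 9.43 and 9.44 with the PAXIP1-AS1 siRNA. The siRNA 1 arrays were the highest, apart from all others. SYVN1 rose by 0.51 ± 0.059 with siRNA 1 (adjusted p = 0.000542), while SEL1L fell by 0.38 with the same siRNA (adjusted p = 0.00116). With siRNA 2 the log2 differences were -0.12 for SYVN1 (adjusted p = 0.171; 0.0477 without control replicate 2) and -0.06 for SEL1L (adjusted p = 0.438). Between the siRNAs SYVN1 differed by -0.64 (adjusted p = 8.98e-05) and SEL1L by 0.32 (adjusted p = 0.0017). The ligase and its adaptor thus moved in opposite directions with siRNA 1.

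HERPUD1, a membrane protein that joins ERAD components and a common stress reporter, is also given by array after its values were seen. It measured 10.38 and 10.53 with the 10 nM control, 10.32 and 10.27 with siRNA 1, 10.90 and 10.91 with siRNA 2, 10.31 and 10.39 with the 100 nM control, and 10.47 and 10.50 with the PAXIP1-AS1 siRNA. The siRNA 2 arrays stood above all others. HERPUD1 rose by 0.45 ± 0.062 with siRNA 2 (adjusted p = 0.00105). With siRNA 1 the log2 difference was -0.16 (adjusted p = 0.0877; 0.031 without control replicate 1, 0.0299 with dim genes left out and 0.0216 with an intensity trend). Between the siRNAs it was 0.61 (adjusted p = 0.000137). HERPUD1 and HSPA5, both usual targets of the response, were thus called in opposite directions with siRNA 2.

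The Derlins, which form part of the exit channel, differed among themselves with siRNA 2. DERL2 rose by 0.39 (adjusted p = 0.00218), DERL1 differed by 0.18 (adjusted p = 0.0647; from 0.00862 to 0.0488 in the 3 settings named for EDEM3), and DERL3 differed by -0.37 (adjusted p = 0.0485). The DERL3 call was lost without any array except siRNA 2 replicate 1 (adjusted p from 0.0537 to 0.23). Between the siRNAs DERL2 differed by 0.32 (adjusted p = 0.00368) and DERL3 by -0.50 (adjusted p = 0.0104), the latter lost without siRNA 1 replicate 1 or siRNA 2 replicate 2 (adjusted p from 0.0525 to 0.0555). With siRNA 1 none of the 3 was called, with adjusted p of 0.427 or more. OS9, a lectin that hands glycoproteins to the SEL1L complex, fell by 0.37 with siRNA 2 (adjusted p = 0.000863) and differed by 0.02 with siRNA 1 (adjusted p = 0.735); between the siRNAs it differed by -0.39 (adjusted p = 0.000398). Its relative ERLEC1 and the ERAD factor SELENOS were not called with either. The ER membrane protein WFS1 differed by -0.28 with siRNA 2 (adjusted p = 0.0353), lost without any array of the control at 10 nM, siRNA 2 or the PAXIP1-AS1 siRNA (adjusted p from 0.0514 to 0.133). SERP1, which binds the translocation channel, differed by -0.25 with siRNA 1 (adjusted p = 0.00796; 0.0565 without siRNA 1 replicate 1). Between the siRNAs WFS1 differed by -0.34 (adjusted p = 0.012) and SERP1 by 0.22 (adjusted p = 0.00989). Both were lost without siRNA 2 replicate 2, WFS1 also without siRNA 1 replicate 2 (adjusted p from 0.0626 to 0.0713) and SERP1 also without siRNA 1 replicate 1 (adjusted p from 0.0539 to 0.0628). Each member call against the 10 nM control that was lost without an array was also lost when the fit held only the arrays compared.

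**Figure D5:**
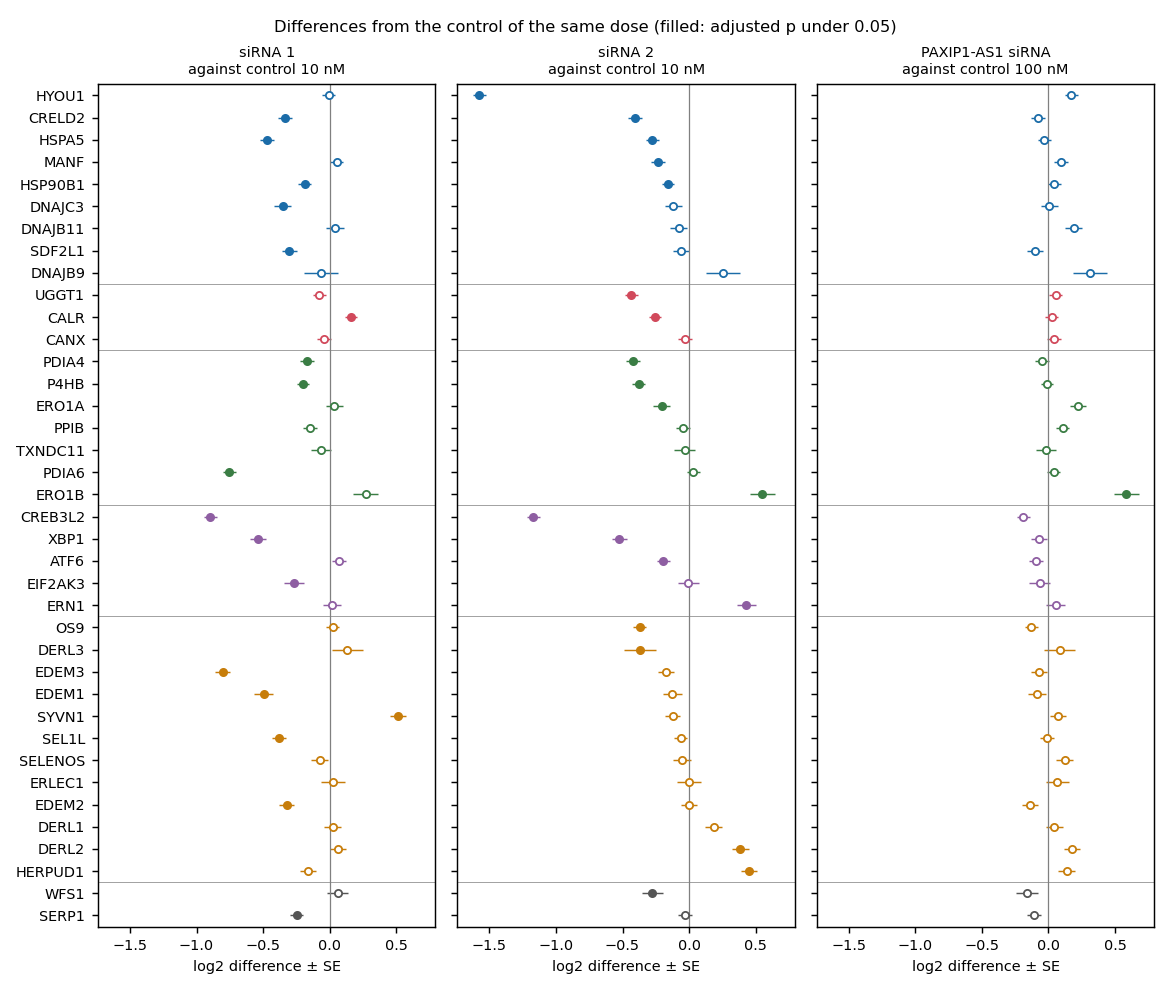
Log2 difference of each of the 38 members from the control of the same dose, with its SE from the limma fit, for siRNA 1, siRNA 2 and the PAXIP1-AS1 siRNA; filled points were called and colours mark the role. The HYOU1 point at -1.58 with siRNA 2 lies farthest from 0, and ERO1B is the single filled point with the PAXIP1-AS1 siRNA.

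The siRNAs against LOC440173 were compared directly, since they share a target, a dose and a time. Of the 38 members 26 were called between them, 13 higher and 13 lower with siRNA 2, against 37.1% of all genes (18.2% higher and 19.0% lower). Among genes at or above the median level the shares were 76.3% of the members and 67.5% of the genes. The median log2 difference was 0.03 over the members and -0.05 over all genes. The members more abundant with siRNA 2 were led by PDIA6, EDEM3 and HERPUD1, and those less abundant by HYOU1, SYVN1 and DERL3. Of the ERAD genes 9 of 12 were called, 6 higher and 3 lower with siRNA 2. XBP1, CRELD2 and HSP90B1 were among those not called between the siRNAs, with log2 differences of 0.02, -0.07 (95% confidence interval -0.19 to 0.05) and 0.03 (-0.08 to 0.14). Of the 26 calls 17 held in every alternative run.

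With the PAXIP1-AS1 siRNA 1 member was called, against 4.62% of all genes (2.86% higher and 1.76% lower). It was ERO1B, which rose by 0.59 ± 0.095, to 150% of the control at 100 nM (adjusted p = 0.0164). This call was lost without any one of the 4 arrays compared (adjusted p from 0.0754 to 0.121). No member was called lower. At an unadjusted p under 0.05 there were 9 members, or 23.7%, ERO1B included, and 18.2% of all genes. Among genes at or above the median level, 15.8% of the members and 20.4% of the genes were called. The 5 members called in that fit but not in the fit of all genes were HYOU1, DNAJB11, ERO1A, CREB3L2 and DERL2.

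HSPA5, XBP1, ERN1 and EIF2AK3 stayed close to the control at 100 nM. The third sensor, ATF6, was not called. Its arrays (10.87 and 10.91) lay below those of that control (10.97 and 10.99), but 51.3% of all genes had no overlap here. The log2 difference was -0.03 for HSPA5 (95% confidence interval -0.15 to 0.08), -0.07 for XBP1 (-0.20 to 0.06), 0.05 for ERN1 (-0.11 to 0.21) and -0.07 for EIF2AK3 (-0.24 to 0.11). HYOU1 differed by 0.17 (adjusted p = 0.095) and CREB3L2 by -0.19 (adjusted p = 0.0726). These intervals leave room for changes of about the size that was called for some members with the LOC440173 siRNAs.

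The effect of the PAXIP1-AS1 siRNA was also tested against that of each LOC440173 siRNA, each relative to the control of its own dose. Against siRNA 1, 11 members (28.9%) differed, 10 of them higher and 1 lower with the PAXIP1-AS1 siRNA. Of all genes 16.8% differed (11.0% higher and 5.82% lower). Against siRNA 2, 12 members (31.6%) differed, 10 higher and 2 lower, and 17.2% of all genes differed (11.2% higher and 6.04% lower). Neither contrast was fitted on genes at or above the median level alone, so no share of genes of similar brightness stands beside these. Dose and target change together in these contrasts and cannot be told apart. The control duplex itself gave 0 called members and 0 called genes (0%) in limma between 100 nM and 10 nM. At an unadjusted p under 0.05 there were 0 members and 692 genes. Across the members its log2 differences ran from -0.12 to 0.07.

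Other genes of the pathway were counted from 84 listed names, 79 of them measured. With siRNA 1, 13 were called higher (16.5%) and 19 lower (24.1%), against 12.1% and 16.7% of all genes. With siRNA 2, 8 were higher (10.1%) and 27 lower (34.2%), against 12.5% and 17.4% of all genes. With the PAXIP1-AS1 siRNA, 5 were higher (6.33%) and 0 lower, against 2.86% and 1.76% of all genes. The siRNA 1 counts became 8 higher without control replicate 2 and 12 lower without siRNA 1 replicate 1, and the siRNA 2 count 5 higher without control replicate 1. The PAXIP1-AS1 siRNA count became 0 without control replicate 1 at 100 nM or either PAXIP1-AS1 siRNA array, and 2 without control replicate 2 at 100 nM or any LOC440173 siRNA array. The lists of these genes were drawn up with earlier results known, so their counts are descriptions beside the background above. With siRNA 1 the largest calls were ASNS, an asparagine synthetase under ATF4 (log2 difference -0.97, adjusted p = 3.75e-05), and the ER thioredoxin TMX4 (-0.89, adjusted p = 4.29e-05). The ERAD ubiquitin-conjugating enzyme UBE2J1 (-0.85, adjusted p = 4.1e-05), the ATF4 target CHAC1 (-0.83, adjusted p = 0.00222) and the stress factor ATF3 (-0.67, adjusted p = 0.00423) followed. The list of PERK and ATF4 output held 11 measured genes. With siRNA 1, 1 of them was higher (9.09%) and 5 lower (45.5%). With siRNA 2, 2 were higher (18.2%) and 3 lower (27.3%). Among bright genes, in their own fit, 32.4% were lower with each siRNA. ATF4 itself has 2 probe sets that disagreed, the brighter at -0.48 and the dimmer at 0.44 with siRNA 1, so its direction is not settled. It is counted here through the brighter one. Without ATF4, 1 of 10 genes of this list was higher and 4 were lower with siRNA 1, and of 78 other pathway genes 13 were higher and 18 lower.

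With siRNA 2 the largest calls lay in glycan handling and export. MCFD2, a cargo receptor subunit, differed by -1.20 (adjusted p = 2.29e-05), and malectin, MLEC, by -1.15 (adjusted p = 1.38e-05). PRKCSH, the beta subunit of glucosidase II, differed by -0.69 (adjusted p = 5.83e-05). Its catalytic subunit GANAB, named after its values were seen, differed by -0.65 (adjusted p = 5.89e-05). Both subunits of the enzyme that readies glycoproteins for calnexin and calreticulin were thus lower. Of the 10 measured genes in the list of glycan trimming, 6 were lower (60%) and 1 higher (10%) with siRNA 2. Over all genes 17.4% were lower and 12.5% higher, and 32.4% of bright genes were lower in their own fit. With siRNA 1, 1 of the 10 was lower and 1 higher, against 16.7% and 12.1% of all genes. The list was drawn up with earlier results known, so its counts are descriptions. With siRNA 1 PRKCSH differed by 0.00 (adjusted p = 0.959), GANAB by -0.05 (adjusted p = 0.503) and MLEC by 0.01 (adjusted p = 0.872). The testis-type calnexin relative CLGN (0.68, adjusted p = 0.011) and the HRD1 partner FAM8A1 (0.67, adjusted p = 8.74e-05) were higher with siRNA 2. The CLGN call was lost without control replicate 1 or siRNA 2 replicate 2 (adjusted p from 0.0598 to 0.0689).

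Between the siRNAs the largest calls among these genes were ASNS (1.31, adjusted p = 4.65e-06), MLEC (-1.17, adjusted p = 5.92e-06), UBE2J1 (1.13, adjusted p = 5.41e-06), MCFD2 (-0.85, adjusted p = 5.35e-05) and FAM8A1 (0.71, adjusted p = 3.53e-05). With the PAXIP1-AS1 siRNA the 5 called were the Hsp70-like HSPA13 (0.65, adjusted p = 0.00676), the thioredoxin TMX1 (0.56, adjusted p = 0.00589) and the PERK substrate EIF2S1 (0.34, adjusted p = 0.0323), with ASNS (0.29, adjusted p = 0.0421) and FAM8A1 (0.28, adjusted p = 0.032). HSPA13 and TMX1 each lost the call without control replicate 1 at 100 nM or without either PAXIP1-AS1 siRNA array. The adjusted p was then from 0.0513 to 0.0662 for HSPA13 and from 0.0526 to 0.0626 for TMX1. EIF2S1, ASNS and FAM8A1 lost it without any one of the 8 arrays other than those of the control at 10 nM (adjusted p up to 0.182, 0.225 and 0.204). HSPA13 and TMX1 were also called higher with siRNA 1 (0.58 and 0.54) and with siRNA 2 (0.63 and 0.39).

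The promoter elements were set beside the values. Of 36 measured members with a promoter, 12 held ERSE or ERSE-II and 24 held neither. With siRNA 1, 7 of the 12 were lower and 1 higher, with a median log2 difference of -0.22. Of the 24, 9 were lower and 1 higher, with a median of -0.07. With siRNA 2, 6 of the 12 were lower and 2 higher (median -0.11), and 9 of the 24 were lower and 2 higher (median -0.12). Members with the element went both ways with siRNA 2, from HYOU1 at -1.58 to ERO1B at 0.55. Over all genes 16.7% were called lower with siRNA 1 and 17.4% with siRNA 2. Among bright genes, in their own fit, 32.4% were lower with each. The counts are a description of chosen genes and were not tested.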

How the data were processed

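HEK-293 cells in 5 siRNA groups of 2 arrays were profiled on Affymetrix arrays. The deposited values are log2 levels of 32321 probe sets; the authors made them with RMA (which corrects background, quantile-normalizes the arrays and summarizes the probes of a set), and limma is also named, both per the submitters' processing notes, without versions. The definition file and build used were not given in the sources used here. Scanner intensities were not used, so signal over background is unknown and the number of arrays limits the precision.

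Platform annotation gave 1 symbol for 19158 probe sets, several for 1388 and none listed for 11775. For 637 genes with several probe sets the brightest was used. Levels of different probe sets were not compared. The fit used limma 3.58.1 in R 4.3.3 (group means, eBayes, 5 residual and 2.87 prior degrees of freedom), two-sided, with Benjamini-Hochberg adjustment over 18404 genes. Errors are standard errors (SE) of this fit. An exact permutation of 2 against 2 arrays reaches p = 0.333 at best, so calls rest on the pooled spread, and p-values measure the spread between these arrays only. The code was tested on simulated data.

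The members and all gene lists were chosen with earlier results of these data known. Array values are given for members called with an absolute log2 difference of 0.5 or more against a control, for ATF6, ERN1, EIF2AK3 and XBP1, for members called in opposite directions with the LOC440173 siRNAs and for members called with the PAXIP1-AS1 siRNA; of the other pathway genes, the 5 largest calls of each comparison are named. Alternatives were array weights, a block for the replicate number, leaving out each array or all dim genes, averaging probe sets, fitting only the arrays compared, a trended robust prior and another quantile normalization. Promoters were searched for exact matches on both strands.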

Additional observations from a re-analysis of the deposited data

Results flagged for a closer look

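The 38 members and 79 other pathway genes measured were searched for opposite calls of the siRNAs against LOC440173 against the same control. There were 6 such genes, and limma called the difference between siRNA 2 and siRNA 1 in them as well. Of all genes 5.34% were called in opposite directions, a share close to that among the genes searched. Calreticulin, CALR, differed between siRNA 2 and siRNA 1 by -0.42 (log2, adjusted p = 0.000249). Among the other pathway genes, the ER thioredoxin TXNDC12 differed by -0.45 (0.23 with siRNA 1 and -0.22 with siRNA 2), CNPY4 by -0.64 (0.28 and -0.36) and the glucosidase MOGS by -0.48 (0.21 and -0.27). UBE2J1 differed by 1.13 (-0.85 and 0.28) and ASNS by 1.31 (-0.97 and 0.34). The siRNA 1 calls of TXNDC12, CNPY4 and MOGS were lost without some arrays, always including control replicate 2 at 10 nM and siRNA 1 replicate 2 (adjusted p from 0.0521 to 0.0837, 0.069 to 0.145 and 0.0576 to 0.177). The siRNA 2 calls of TXNDC12 and MOGS were lost too, TXNDC12 without control replicate 1 or siRNA 2 replicate 1 (adjusted p from 0.057 to 0.079) and MOGS without siRNA 2 replicate 2 (adjusted p = 0.0703).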

How the results depend on the processing

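No call of a member turned direction in any alternative run. Of the members called, 12 of 18 with siRNA 1, 12 of 20 with siRNA 2, 17 of 26 between the siRNAs and 0 of 1 with the PAXIP1-AS1 siRNA stayed called in all alternatives. Members called higher with siRNA 1 went from 2 to 1 with only the compared groups, to 3 with dim genes left out and to 1 with array weights, and ranged from 1 to 2 with an array left out. Members called lower with siRNA 2 went from 16 to 8 with only the compared groups. With the PAXIP1-AS1 siRNA the members called higher went from 1 to 5 with dim genes left out, 4 with the intensity trend, 2 with the replicate block and 2 with array weights, and from 0 to 1 with an array left out. Members called lower there went from 0 to 1 with dim genes left out, the intensity trend or array weights. Over all genes that comparison gave 850 calls, 1879 with dim genes left out, 181 with only the compared groups, 1784 with the trend, 1325 with the replicate block, 1544 with array weights and 110 to 895 with an array left out (110 to 187 without an array compared). With only the compared groups, siRNA 1 went from 5301 to 3494 genes and siRNA 2 from 5512 to 2788. Other pathway genes then gave 7 higher with siRNA 1, 4 higher and 12 lower with siRNA 2 and 1 higher with the PAXIP1-AS1 siRNA; with dim genes left out siRNA 2 gave 15 higher and the PAXIP1-AS1 siRNA 11 higher and 5 lower. The replicate block gave 9 higher there. Without siRNA 1 replicate 1 or 2, siRNA 1 gave 3294 and 3423 genes; a lone array was assumed to vary like the other groups. The control doses gave 0 calls in all. Same-numbered arrays deviated together at r = 0.29 to 0.53 among groups other than siRNA 1, and at 0.07 to 0.09 in the pairs with siRNA 1. Since not every pair exceeded 0.1 and no label ties the numbers together, the numbers were not taken as pairs. The main fit therefore leaves out the deviation shared among the groups other than siRNA 1. With the replicate block, siRNA 1 gave 6739 called genes and siRNA 2 gave 6329. Under the replicate block ERO1B (adjusted p = 0.0263) and PPIB (0.0422) with siRNA 1, DERL1 (0.0418) and EDEM3 (0.0349) with siRNA 2, ERO1B (0.0194) between the siRNAs and ERO1A (0.0389) with the PAXIP1-AS1 siRNA were also called. The causes were not tested. A log2 difference had a median SE of 0.0793.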
